A study of Mus musculus with 6 samples.

Results

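The choroid plexus is the secretory epithelium of the brain ventricles, and 10 genes that are typical of it were followed through the cerebral cortex of SAMR1 mice, SAMP8 control mice and STEE-fed SAMP8 mice. The genes were *Ttr*, *Kl*, *Folr1*, *Clic6*, *Kcnj13*, *Aqp1*, *Otx2*, *Enpp2*, *Sostdc1* and *1500015O10Rik*. They were matched by gene symbol on the array, which gave 20 of the 45077 probe sets and 10 of 22527 different symbols. Each probe set is a bundle of short probes against a transcript, and a gene can have several. The genes were chosen with the differences between these groups known, so their values are given as a description and without a test of their own.

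Cortical RNA was measured on 6 Affymetrix mouse array strips, with 2 biological samples in each of 3 groups of male mice, aged 16 weeks according to the sample labels. The authors report acclimatization, administration and behavioral tests of these mice before sacrifice. The mice were thus older than 16 weeks when the cortex was taken. SAMP8 is a senescence-accelerated strain, and SAMR1 is the senescence-resistant strain that served as the normally aging control. STEE, an ethanolic extract of sugarcane tops, was given by mouth to SAMP8 mice over 30 days (20 mg/kg) and during the following 8 days of behavioral tests. SAMP8 control mice and SAMR1 mice received the same volume of Milli-Q water. SAMP8 is a model of accelerated aging as a whole strain, so a difference from SAMR1 covers every difference between both strains and not age alone. The sources used here did not say whether a biological sample was 1 mouse or several pooled mice. No STEE-fed SAMR1 group was among the samples. The values were the authors' mean log2 signal of each group, and the standard error of a difference was recovered from the p-value of the same comparison. The small number of samples limits the precision of every value.

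The choroid plexus epithelium secretes cerebrospinal fluid and forms the barrier between blood and that fluid. Transthyretin, the product of *Ttr*, is its main secreted protein and carries thyroxine, and with retinol-binding protein also retinol. The tissue lies in the ventricles and is not a part of the cerebral cortex. In bulk tissue, fewer cells of a type and less RNA per cell cannot be told apart.

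The promoters of *1500015O10Rik*, *Kcnj13* and *Otx2* are shown because these genes were lower in SAMP8 control together with *Ttr* and because OTX2 is a homeodomain transcription factor that choroid plexus development requires. *Aqp1* and *Kl* also have a listed window and were lower at 1 probe set each, and their windows are not shown. The sequences are from RefSeq on GRCm38.p6, run from 250 bases before to 50 bases after an annotated start, and are written 5′ to 3′ along the gene. *1500015O10Rik*, listed by RefSeq as *Ecrg4*, lies at chr1:43730352-43730651 on the plus strand. *Kcnj13* lies at chr1:87394680-87394979 on the minus strand. *Otx2* has 4 listed windows, and the 1 shown was picked because it alone held TAATCC on either strand. This *Otx2* window lies at chr14:48665060-48665359 on the minus strand. Capitals mark the letters GGATTA, the reverse complement of TAATCC, the core that OTX proteins bind.
1500015O10Rik: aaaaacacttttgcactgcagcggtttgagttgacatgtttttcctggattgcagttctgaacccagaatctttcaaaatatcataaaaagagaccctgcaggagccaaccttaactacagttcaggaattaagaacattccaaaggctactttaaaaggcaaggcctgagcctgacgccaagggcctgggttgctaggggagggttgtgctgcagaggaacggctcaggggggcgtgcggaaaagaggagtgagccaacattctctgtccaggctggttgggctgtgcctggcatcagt
Kcnj13: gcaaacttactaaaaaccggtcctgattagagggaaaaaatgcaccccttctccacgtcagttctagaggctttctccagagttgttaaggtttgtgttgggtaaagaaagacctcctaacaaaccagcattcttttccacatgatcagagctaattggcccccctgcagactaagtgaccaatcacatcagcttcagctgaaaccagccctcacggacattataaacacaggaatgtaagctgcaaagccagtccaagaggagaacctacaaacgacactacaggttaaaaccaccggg
Otx2: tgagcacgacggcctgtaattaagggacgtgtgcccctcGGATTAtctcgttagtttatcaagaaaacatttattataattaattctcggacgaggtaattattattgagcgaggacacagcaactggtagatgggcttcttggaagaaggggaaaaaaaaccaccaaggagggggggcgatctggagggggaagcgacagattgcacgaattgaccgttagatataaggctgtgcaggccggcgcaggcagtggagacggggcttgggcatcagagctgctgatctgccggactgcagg
TAATCC was searched on both strands. It was found in 1 of 8 windows of the 5 genes with a listed promoter, which were *Kl*, *Kcnj13*, *Aqp1*, *Otx2* and *1500015O10Rik*. The match lay in 1 of the 4 *Otx2* windows. It began 211 bases before the annotated start of that window, at base 40. Of all 32851 promoter windows of the same length, 2320 (7.06%) held the letters. A match is a description of these letters only.

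*Ttr*, the carrier of thyroxine, had the widest differences among the 10 genes. Its probe set of highest signal, 1454608_PM_x_at, had a SAMR1 mean of 10.20 on the log2 scale, against 8.24 in SAMP8 control and 9.33 with STEE. The other 3 probe sets had the same order of groups. The mean was 9.64, 7.47 and 8.71 at 1455913_PM_x_at in the order SAMR1, SAMP8 control and STEE-fed SAMP8. It was 9.93, 8.11 and 9.19 at 1459737_PM_s_at in the same order. At 1451580_PM_a_at it was 8.37, 6.27 and 7.53. SAMR1 was thus highest, SAMP8 control lowest and STEE-fed SAMP8 between them at every *Ttr* probe set. Probe sets of a gene can share probes and share their samples, so these 4 are not independent measurements.

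At 1454608_PM_x_at the *Ttr* mean of SAMP8 control was 3.89-fold below that of SAMR1, a log2 difference of -1.96 (SE 1.81, n = 2 samples per group). Over the 4 probe sets this difference lay between -2.17 and -1.82, with standard errors from 1.76 to 2.01. The mean of STEE-fed SAMP8 at 1454608_PM_x_at was 2.13-fold above that of SAMP8 control, a log2 difference of 1.09 (SE 1.51, n = 2 samples per group). Both comparisons share the SAMP8 control samples, so a low or high value there moves both in opposite directions. Among all 45077 probe sets, the 4 of *Ttr* held the ranks 1 to 4 of the positive differences with STEE, and 1451580_PM_a_at, with 1.26 (SE 1.52), was the highest. In the strain comparison they held the ranks 6, 7, 11 and 17 of the negative differences. Neither *Ttr* difference was larger than about its own standard error. limma's adjusted p at 1454608_PM_x_at was 0.660 in the strain comparison and 1 in the STEE comparison. The means of STEE-fed SAMP8 and SAMR1, which share no sample, differed by -0.87 at 1454608_PM_x_at, and both recovered errors bound the standard error of this difference between 0.974 and 2.37.

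**Figure D1:**
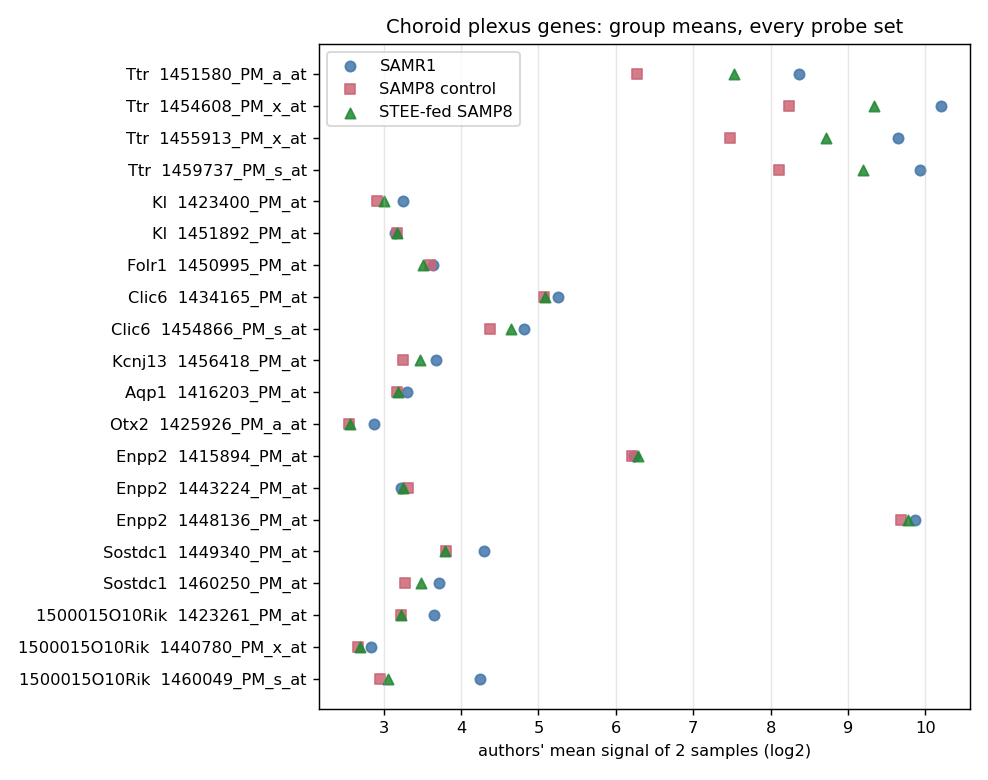
Group means of the 20 probe sets of the 10 choroid plexus genes, as the authors' mean log2 signal (horizontal axis) per probe set (vertical axis), with circles for SAMR1, squares for SAMP8 control and triangles for STEE-fed SAMP8, each from 2 samples. The 4 *Ttr* probe sets run from SAMP8 control through STEE-fed SAMP8 to SAMR1, while at most others the SAMP8 groups lie close together. Signals of different probe sets are not comparable as levels of RNA.

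*1500015O10Rik* encodes augurin, a secreted peptide precursor of choroid plexus and other epithelia. At 1460049_PM_s_at it had a SAMR1 mean of 4.25, against 2.95 in SAMP8 control and 3.06 with STEE. The strain difference was -1.30 (SE 1.22), 2.46-fold, and held rank 36 of the negative differences among all probe sets. The STEE difference was 0.11 (SE 0.225). The SAMP8 groups thus lay side by side for this gene, and STEE-fed SAMP8 was 1.19 below SAMR1 on the log2 scale. At 1423261_PM_at the means were 3.65, 3.23 and 3.23 by group in the same order, and at 1440780_PM_x_at they were 2.83, 2.67 and 2.70.

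The other secreted proteins were *Sostdc1*, an antagonist of bone morphogenetic proteins that also acts on Wnt signaling, and *Enpp2*, which encodes autotaxin, the enzyme that makes lysophosphatidic acid. *Sostdc1* had means of 4.30, 3.81 and 3.79 at 1449340_PM_at in the order SAMR1, SAMP8 control and STEE-fed SAMP8. Its strain difference there was -0.49 (SE 0.550). At 1460250_PM_at the means were 3.72, 3.28 and 3.48, and the difference with STEE was 0.20 (SE 0.029), with an unadjusted limma p of 0.035 and an adjusted p of 1. The *Sostdc1* probe sets thus gave the same direction by strain and did not give the same direction with STEE. *Enpp2*, which oligodendrocytes also express, had means of 9.87, 9.68 and 9.77 at 1448136_PM_at, with a strain difference of -0.19 (SE 0.322). Its other probe sets differed by strain by -0.03 (SE 0.112) at 1415894_PM_at and by 0.10 (SE 0.152) at 1443224_PM_at. Markers of oligodendrocytes differed beside *Enpp2*: all 9 genes listed had lower means in SAMP8 control than in SAMR1, with a median difference of -0.31. Of these markers, 6 passed an unadjusted limma p of 0.05 by strain and 0 an adjusted one. Among all probe sets, 49.6% were lower by strain and 9.23% were under the unadjusted 0.05. The part of these markers in the *Enpp2* values was not tested.

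Among channels of the epithelium, *Kcnj13*, the inward rectifier potassium channel Kir7.1 of the apical membrane, had means of 3.68, 3.25 and 3.47 in the order SAMR1, SAMP8 control and STEE-fed SAMP8. Its strain difference was -0.43 (SE 0.432) and its STEE difference 0.22 (SE 0.227), each about the size of its error. *Clic6*, of the chloride intracellular channel family, had means of 4.81, 4.37 and 4.64 at 1454866_PM_s_at. Here the strain difference of -0.44 (SE 0.090) was larger than its error, with an unadjusted limma p of 0.002 and an adjusted p of 0.211. The other *Clic6* probe set, 1434165_PM_at, had means of 5.25, 5.07 and 5.08, a strain difference of -0.18 (SE 0.056), with an unadjusted limma p of 0.061. *Aqp1*, the water channel of the apical membrane, had means of 3.30, 3.17 and 3.18. Its strain difference was -0.13 (SE 0.034), with an unadjusted limma p of 0.129 and an adjusted p of 0.682. *Clic6* and *Aqp1* were thus lower in SAMP8 control by more than 1 standard error. So was at least 1 probe set each of *Ttr*, *Kl*, *Otx2*, *Sostdc1* and *1500015O10Rik*.

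The receptors were *Folr1*, folate receptor alpha, which carries folate across the epithelium, and *Kl*, which encodes klotho, a co-receptor of fibroblast growth factor 23. *Folr1* had means of 3.64, 3.60 and 3.51 in the order SAMR1, SAMP8 control and STEE-fed SAMP8, with differences of -0.04 (SE 0.105) by strain and -0.09 (SE 0.125) with STEE. Neither difference was larger than its error. *Kl* gave 3.25, 2.91 and 3.0 at 1423400_PM_at, a strain difference of -0.34 (SE 0.312), and 3.15, 3.17 and 3.17 at 1451892_PM_at. *Otx2*, the transcription factor of the group, had means of 2.87, 2.55 and 2.57, a strain difference of -0.32 (SE 0.161) with an unadjusted limma p of 0.034 and an adjusted p of 0.482. With STEE *Otx2* differed by 0.02 (SE 0.080). All 3 of these genes had signals below 4.15, the median over all probe sets, which limits how small a difference can be seen in them. Of the 10 genes, *Ttr*, *Enpp2* and *Clic6* were above that median at their probe set of highest signal.

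**Figure D2:**
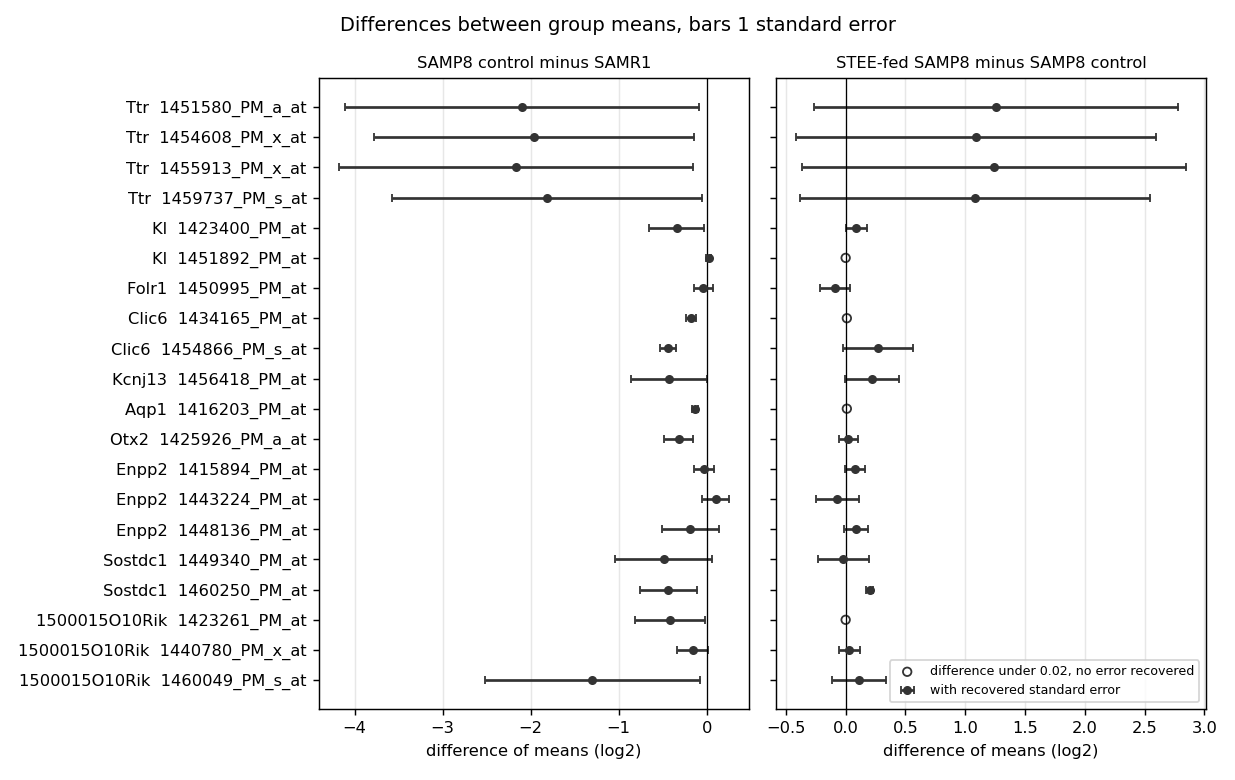
Differences between group means on the log2 scale (horizontal axes) for each of the 20 probe sets (vertical axis), SAMP8 control minus SAMR1 on the left and STEE-fed SAMP8 minus SAMP8 control on the right. Points are differences, bars are 1 recovered standard error from 2 against 2 samples, and open points had a difference too small for an error to be recovered. The *Ttr* bars are the longest in both panels.

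Over their 20 probe sets, the 10 genes had a lower SAMP8 control mean than SAMR1 mean at 18 and a higher one at 2, with a median difference of -0.38. Over all 45077 probe sets, 49.6% were lower and 46.5% higher, with a median of 0.00. With STEE, 15 of the 20 were higher than in SAMP8 control, 3 were lower and 2 had equal means, with a median of 0.085, against 47.3% higher and 48.1% lower among all. STEE-fed SAMP8 remained below SAMR1 at 17 of the 20, with a median of -0.225. With 1 probe set per gene, the medians over the 10 genes were -0.255 by strain and 0.015 with STEE. *Ttr* thus stood far from the other genes in the STEE comparison, with 1.09, a difference smaller than its standard error of 1.51. These genes were chosen on these differences, and the directions are therefore a description of the choice.

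None of the 20 probe sets passed an adjusted limma p of 0.05 in either comparison. Among all probe sets, 119 (0.264%) passed it by strain and 1 (0.00222%) with STEE. Before adjustment, 2 of the 20 were under 0.05 by strain, 1 each of *Clic6* and *Otx2*, where 9.23% of all were. With STEE 1 of the 20 was under 0.05, of *Sostdc1*, where 3.44% of all were. Since the genes were chosen on these comparisons, nothing is read from these counts.

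The recovered errors of these genes were wide. Their median standard error was 0.317 by strain and 0.195 with STEE, against 0.0797 and 0.0804 over all probe sets. Of the 12 probe sets with a strain difference of at least 0.3 in size, 10 (83.3%) had a difference under 1.5 times its standard error. Among all 2407 probe sets with such a difference, 358 (14.9%) did. The median ratio of difference to error was 1.07 in the former and 3.20 in the latter. The genes were chosen with these comparisons known, so both contrasts describe the choice and were not tested. The 4 probe sets of *Ttr* are among the 12 and are not independent measurements. A ratio of 1 is what arithmetic gives when 1 of 4 samples differs and the other 3 are equal, although other arrangements of 4 values give it too.

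Which group held the spread could be bounded. Both comparisons use the same SAMP8 control samples, so the difference between both squared errors leaves the gap between the SAMR1 samples against the gap between the STEE-fed samples. The SAMR1 gap was the larger at 12 of the 20 probe sets, the STEE-fed gap at 1, and 7 could not be ordered. Among all probe sets, the SAMR1 gap was the larger at 21.4% and the STEE-fed gap at 19.9%. With 1 probe set per gene, the SAMR1 gap was the larger in 6 of the 10 genes and the STEE-fed gap in 0. Since the genes were chosen with these comparisons known, the counts describe the choice and were not tested. The 12 probe sets with the larger SAMR1 gap belonged to *Ttr*, *Kl*, *Kcnj13*, *Otx2*, *Enpp2*, *Sostdc1* and *1500015O10Rik*. The 1 with the wider STEE-fed gap was *Clic6* at 1454866_PM_s_at, where the STEE-fed samples were 0.538 to 0.612 apart and those of each other group at most 0.183 apart.

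For *1500015O10Rik* at 1460049_PM_s_at, the SAMR1 samples were between 2.37 and 2.45 apart on the log2 scale and the samples of each SAMP8 group at most 0.491. The lower SAMR1 sample was then between 3.02 and 3.07, next to the SAMP8 control mean of 2.95. The higher one was between 5.43 and 5.48, and most of the strain difference of this gene came from it. *Kl* at 1423400_PM_at gave a lower SAMR1 sample between 2.93 and 2.96 and a higher one between 3.54 and 3.57, beside a SAMP8 control mean of 2.91. *Kcnj13* gave 3.24 to 3.33 and 4.03 to 4.12 beside 3.25, and *Sostdc1* at 1449340_PM_at gave 3.74 to 3.87 and 4.73 to 4.86 beside 3.81. *Enpp2* at 1448136_PM_at gave a lower SAMR1 sample of 9.53 to 9.59, below the SAMP8 control mean of 9.68. In *Otx2* both SAMR1 samples lay above the SAMP8 control mean of 2.55, the lower between 2.70 and 2.77 and the higher between 2.97 and 3.04. Which of both SAMR1 samples was the higher one, and whether it was the same in each gene, is not known from group means.

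For *Ttr* the samples of at least 1 SAMP8 group were spread as well as those of SAMR1. At 1454608_PM_x_at the SAMR1 samples were between 1.95 and 3.65 apart, the lower between 8.38 and 9.23 and the higher between 11.2 and 12.0. The samples of at least 1 SAMP8 group were 2.11 or more apart, and those of neither were more than 3.04 apart. The difference of 1.09 with STEE was thus smaller than the gap between the samples of at least 1 of the groups it compares. The same held at the other 3 *Ttr* probe sets, where the wider gap of the SAMP8 groups was at least 2.05, 2.13 and 2.25.

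**Figure D3:**
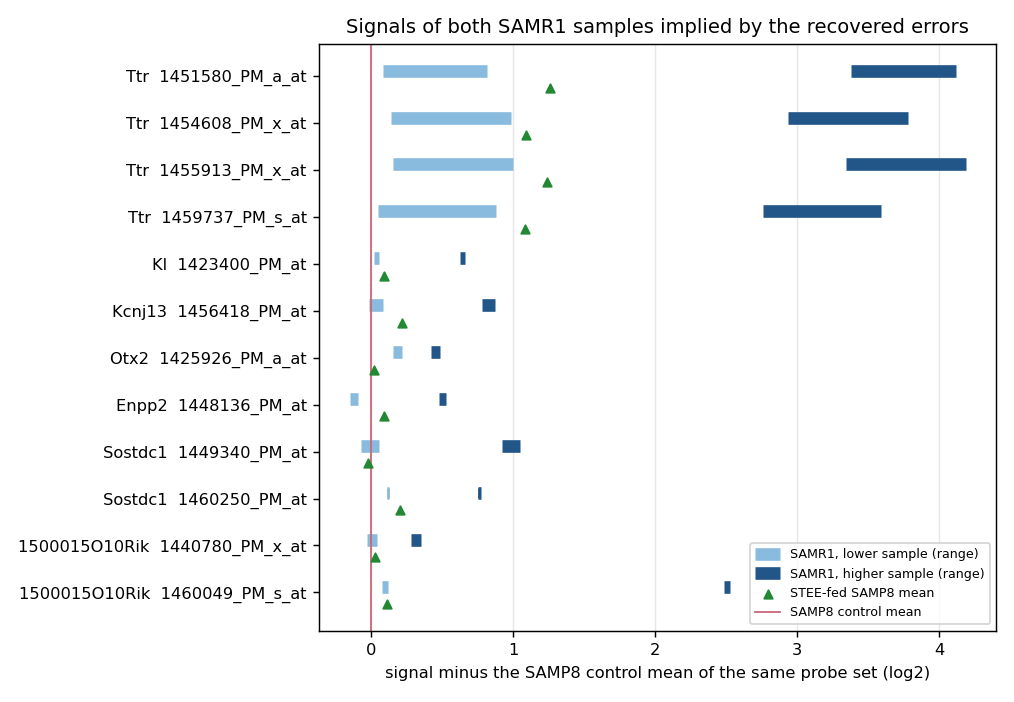
Ranges of the lower (light bars) and higher (dark bars) SAMR1 sample implied by the recovered errors at the 12 probe sets where the SAMR1 gap was the larger, as log2 signal minus the SAMP8 control mean of the same probe set (horizontal axis). The line at 0 is the SAMP8 control mean and triangles are STEE-fed SAMP8 means. At 1460049_PM_s_at of *1500015O10Rik* the lower SAMR1 sample lies by the line and the higher one far to its right.

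A list of 31 other genes of the choroid plexus epithelium, all on the array, had a median difference nearer to 0 than the 10. Since the 10 were chosen with these differences known, this contrast describes the choice and was not tested. At 1 probe set per gene, 22 (71.0%) had a lower mean in SAMP8 control than in SAMR1, and 9 a higher one, with a median difference of -0.05. Among all probe sets, 49.6% were lower and 46.5% higher by strain. With STEE 18 were higher and 13 lower, with a median of 0.01, against 47.3% higher and 48.1% lower among all. None passed an adjusted p of 0.05, and before adjustment 3 were lower and 1 higher by strain and 2 were higher with STEE, where 9.23% and 3.44% of all probe sets passed. The summed linear signal of the list, to which its brightest probe sets contribute most, was 742 in SAMR1 and 700 in each SAMP8 group. The SAMR1 gap was the larger in 6 of the 31 (19.4%) and the STEE-fed gap in 5 (16.1%), against 21.4% and 19.9% of all probe sets. Only 12 of the 31 had a signal at or above the median of the array.

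Within this list the lowest values by strain were those of *Slc4a2*, an anion exchanger, with -0.31 (SE 0.096) and an unadjusted limma p of 0.014, and of *Kcne2*, a potassium channel subunit, with -0.30 (SE 0.250). *Abca4* followed with -0.27, *Calml4* with -0.26 and *Spint2*, a serine protease inhibitor, with -0.26. *Calml4* again held a wide SAMR1 gap, with samples at 2.97 to 3.04 and 3.64 to 3.71. The highest were *Car12*, a carbonic anhydrase, with 0.37 (SE 0.088) and an unadjusted limma p of 0.006, and *Cldn2*, a tight junction protein, with 0.11, followed by *Trpv4* with 0.10, *Cldn1* with 0.08 and *Col8a2* with 0.07. With STEE the highest were *Cox8b* with 0.28 (SE 0.150), *Slc16a8*, a lactate transporter, with 0.23 (SE 0.074), *Tmem72* with 0.19, *Col8a1* with 0.15 and *Calml4* with 0.11. The lowest with STEE were *Mfrp* with -0.16, *Cldn2* and *Trpv4* with -0.14 each, *Col8a2* with -0.09 and *Slc13a4* with -0.07. No gene of the list had a difference with STEE near the 1.09 (SE 1.51) of *Ttr*. Of 5 genes that choroid plexus shares with neurons or glia, 4 were lower in SAMP8 control, with a median of -0.17. The ion transporters of highest signal, *Slc4a10* and *Slc12a2*, differed by 0.10 (SE 0.082) and -0.05 (SE 0.106), and *Htr2c*, a serotonin receptor, by -0.17 (SE 0.130).

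Genes that act with the 10 were listed by role. Some were carriers and transporters of thyroid hormone and retinol, folate transporters and co-receptors of Wnt. Others were receptors of thyroid hormone, lysophosphatidic acid and fibroblast growth factor. Of these 13, 6 were lower and 5 higher in SAMP8 control than in SAMR1, with a median of 0.00. With STEE 10 were lower and 3 higher, with a median of -0.04. None passed an adjusted p of 0.05. *Slco1c1*, a thyroxine transporter of brain capillaries, had means of 8.58, 8.16 and 7.90 in the order SAMR1, SAMP8 control and STEE-fed SAMP8, so STEE-fed SAMP8 was farthest from SAMR1. *Dio2*, the enzyme that activates thyroxine in astrocytes, had 7.03, 7.55 and 7.50, higher in both SAMP8 groups. *Thra*, a thyroid hormone receptor, had 9.46, 9.39 and 9.37. None of these 3 had the order of groups that *Ttr* had.

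Markers of neighbouring tissue also had unequal means in SAMR1 and SAMP8 control, and their part in the values of the choroid plexus genes was not tested. All 10 striatum markers were higher in SAMP8 control, with a median of 0.665 and a median standard error of 0.727, and all 8 thalamus markers were lower, with a median of -0.49 and a median standard error of 0.149. Before adjustment 0 of the 10 striatum markers and 3 of the 8 thalamus markers were under a limma p of 0.05, and after adjustment 0 and 1 were. Among all probe sets, 9.23% were under it by strain before adjustment and 0.264% after, and 49.6% were lower and 46.5% higher. The summed linear signal of striatum was 2391 in SAMR1, 3743 in SAMP8 control and 3869 with STEE, and that of thalamus was 506, 348 and 366. *Prkcd*, a kinase typical of thalamus, had means of 6.31, 5.53 and 5.50 and an adjusted limma p of 0.0468 by strain. Of 8 hippocampus markers 7 were lower, with a median of -0.25, and 13 of 15 markers of the leptomeninges were lower, with a median of -0.10. The SAMR1 gap was the larger in 9 of the 10 striatum markers, 5 of the 8 thalamus markers and 8 of the 15 of the leptomeninges, and in none of the 9 oligodendrocyte markers. The STEE-fed gap was the larger in 0 of the striatum markers, 2 of thalamus, 1 of the leptomeninges and 4 of the oligodendrocyte markers. Among all probe sets, the SAMR1 gap was the larger at 21.4% and the STEE-fed gap at 19.9%. *Penk* of the striatum list had SAMR1 samples at 8.30 to 8.33 and 9.67 to 9.70 beside a SAMP8 control mean of 9.72, and *Slc17a6* of the thalamus list had 6.91 to 6.94 and 7.90 to 7.93 beside 6.69. At *Penk* and *Slc17a6* the SAMR1 samples were thus apart, as at several choroid plexus genes. Both examples were chosen after their values were seen, and the lists with earlier results known. These gaps are a description and were not tested. With STEE the striatum and thalamus medians were 0.045 and -0.025. Among markers of cortex itself, *Tbr1*, a transcription factor of its excitatory neurons, had means of 8.12, 8.28 and 8.57 in SAMR1, SAMP8 control and STEE-fed SAMP8, well above the median of the array in each group.

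**Figure D4:**
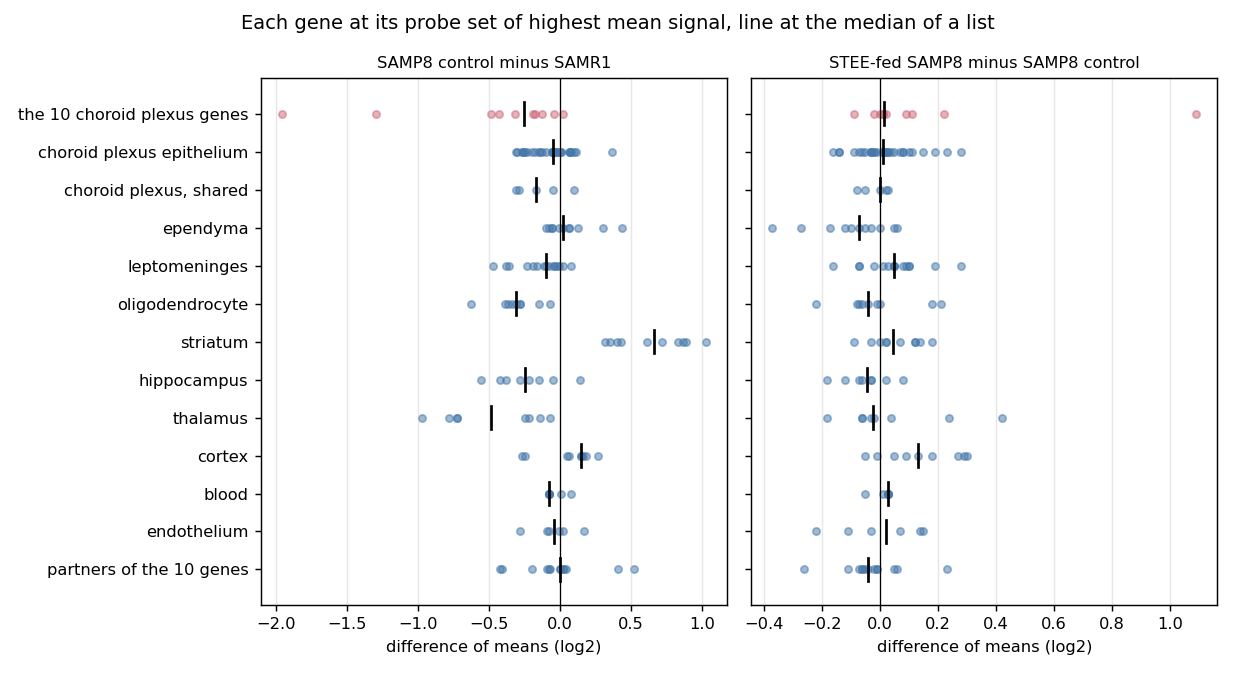
Differences on the log2 scale (horizontal axes) of each gene of each list (vertical axis), SAMP8 control minus SAMR1 on the left and STEE-fed SAMP8 minus SAMP8 control on the right, with a line at the median of a list. Each point is a gene at its probe set of highest mean signal. The 10 choroid plexus genes reach -1.96 by strain, and with STEE *Ttr* stands alone at 1.09, a difference smaller than its standard error of 1.51.

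The genes nearest to *Ttr* in both differences were looked up among all symbols, by the straight distance between the pairs of log2 differences over the 3 groups. They were *Avp*, which encodes vasopressin, at a distance of 1.02, then *Ppp1r1a* at 1.12, *Pcolce2* at 1.14, *5730408A14Rik* at 1.15, *Cabp7* at 1.18, *Rhox4b* at 1.20, *Pmch* at 1.21, *Erdr1* at 1.21, *A430102J17Rik* at 1.24 and *Lingo2* at 1.25. *Avp* had means of 5.66, 3.43 and 3.54 in the order SAMR1, SAMP8 control and STEE-fed SAMP8. *Pmch*, the precursor of melanin-concentrating hormone, had 5.79, 3.31 and 3.31. *Avp* and *Pmch* are transcripts of hypothalamic neurons, and both were low in both SAMP8 groups. The highest STEE difference among these 10 was 0.42, of *Lingo2*, so none was a close match to *Ttr* in the STEE comparison.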

How the data were processed

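Labels gave 6 samples of cerebral cortex in 3 groups of 2. The authors used RMA in Affymetrix Expression Console for the scanned intensities and Transcriptome Analysis Console for the comparisons. They deposited group means in log2 units, to 2 decimals, as bi-weight averages. The p-values deposited by the authors come from a one-way between-subjects ANOVA of each comparison and were used here only to recover the standard error, as the difference divided by the t quantile with 2 degrees of freedom. RMA fits all arrays together and equalises their distributions, which can shrink differences of dim probe sets. The deposited fold changes and FDR p-values are the authors' own comparisons and were not used. A spread shared by all 3 groups would give both comparisons the same error: of 7117 probe sets whose differences both reached 0.1 in size, 24.6% had errors within 10% of each other. No value per array was used.

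limma 3.58.1 (R 4.3.3) moderated the recovered variances for differences of at least 0.02, which left 39871 probe sets by strain and 38760 with STEE, with 3.98 and 4.77 prior degrees of freedom. Other probe sets received a p of 1. Tests were two-sided and Benjamini-Hochberg adjustment ran over all 45077 probe sets. Bounds of the gap between the samples of a group allow for a rounding of 0.01 in a difference. The steps were tested on simulated data. Python 3.11.15 was used with pandas 2.3.3, numpy 2.4.6, scipy 1.17.1 and, for figures, matplotlib 3.10.9.

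The members and lists were chosen with earlier results of these data known. A gene was listed at its probe set of highest mean signal. Named were the 10 genes, of each list the 3 genes of highest signal and any with an adjusted p under 0.05, the 5 highest and 5 lowest differences of the choroid plexus epithelium list, and the 10 symbols nearest to *Ttr*. *Calml4*, *Slc17a6* and *Penk* as examples of wide gaps were chosen after their values were seen. Promoter windows were matched by symbol for 5 of the 10 genes. Alternatives were no moderation, a prior trended on signal, a filter on signal, another smallest difference, no adjustment, the mean over the probe sets of a gene, centring of the groups and single-symbol probe sets.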

Additional observations from a re-analysis of the deposited data

How the results depend on the processing

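The number of probe sets that passed the test for SAMP8 control minus SAMR1 was 119, and it became 1 without moderation and 4159 before adjustment. For STEE-fed SAMP8 minus SAMP8 control it was 1, and 1551 before adjustment. Of the 20 probe sets of the choroid plexus genes 0 passed, and before adjustment 2 did by strain and 1 with STEE. A trended prior gave 155 by strain, a filter on signal 98 and a smallest difference of 0.05 gave 135, with 0 of the 20 under each. The median over the 10 genes lay between -0.315 and -0.19 by strain, between 0.015 and 0.09 with STEE and between -0.19 and -0.17 for STEE-fed SAMP8 minus SAMR1 over all settings tried, and that of the 31 other choroid plexus genes between -0.06 and -0.04 by strain and between 0.00 and 0.015 with STEE. No paired analysis was possible because the values are group means. For the same reason leaving out each replicate was not run. Signals of 7 of the 10 genes were under the median of the array, which limits how small a difference in them can be seen.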

Other observations

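Ependyma, the ciliated lining of the ventricles on which the choroid plexus borders, had markers on both sides of 0. Of 12 markers listed 11 were on the array. The SAMP8 control mean was above that of SAMR1 in 6 and below it in 5, with a median difference of 0.02. With STEE 8 were lower and 2 higher, with a median of -0.07. *Rsph1*, a radial spoke protein of motile cilia, had means of 4.21 in SAMR1, 4.65 in SAMP8 control and 4.55 with STEE, and *Tmem212* had in this order 4.39, 4.69 and 4.32. None passed an adjusted limma p of 0.05.

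Of 9 cortex markers, 7 had a higher mean in SAMP8 control than in SAMR1 and 2 a lower one, with a median of 0.15, and with STEE the same counts came with a median of 0.13.

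Hemoglobin differed little. *Hba-a1* had means of 10.15, 10.16 and 10.17 in the same order of groups, and the probe set shared by the listed *Hbb* symbols had 9.68, 9.60 and 9.63. Of 6 endothelial markers, 4 were lower and 2 higher in SAMP8 control than in SAMR1, with a median of -0.045. *Cldn5*, a tight junction protein of brain capillaries, had means of 6.13, 5.85 and 6.0. In the leptomeninges list, *Ptgds*, which encodes prostaglandin D synthase and is also made by choroid plexus, had 11.57, 11.19 and 11.27, with a strain difference of -0.38 (SE 0.189). *Igf2* had 6.73, 6.26 and 6.45, the same order of groups as *Ttr*, with differences of -0.47 (SE 0.333) and 0.19 (SE 0.130) that did not pass the adjusted test.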
